A study of Homo sapiens with 6 samples.

Results

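The tetraspanins are a family of small membrane proteins, and here they comprised 32 genes read by 60 probe sets, out of 19775 genes and 54613 probe sets on the array that are not controls. A probe set is the group of short oligonucleotides that reads a transcript. The members were all probe sets that the platform annotation gives to a single gene named TSPAN with a number, or to CD9, CD37, CD53, CD63, CD81, CD82, CD151, PRPH2, ROM1, UPK1A or UPK1B. Antisense genes were left out. The rule reads names only, but the family was picked with earlier results of these data known. RNA was measured on 6 one-colour arrays. The wtCopFry group held 3 arrays of 231wCFry, a stable puromycin-selected clone of the human breast tumour line MDA-MB-231 that per the labels carries the wild-type Cop allele of rat Fry. The not_transfected group held 3 arrays of MDA-MB-231 itself, an established line of invasive, mesenchymal-like cells from an oestrogen receptor negative breast tumour. The clone was picked because its Fry level resembled that of MCF10A, a non-tumour breast epithelial line, and the cDNA sat in a plasmid based on pEGFP-N1. Both groups grew as monolayers in the same medium. The clone is a single line, a clone with an empty vector is not described in the labels, and the passage of each sample is not given, although the design text says that samples differed in passage. No label names separate cultures, so the p-values measure only the spread between these arrays, and their number, 3 per group, limits the precision.

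A tetraspanin crosses the membrane several times and carries a large extracellular loop held by disulphide bonds. Tetraspanins bind each other and partner proteins such as integrins, immunoglobulin-type receptors and the protease ADAM10, and so gather them into membrane microdomains. Several are sorted to endosomes and serve as markers of exosomes. In tumour cells the family is known for its links to adhesion, migration and metastasis.

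The arrays labelled wtCopFry did not carry the marker profile of the not_transfected arrays, and this bears on every comparison below. Over all genes tested, 34.3% were called higher and 33.3% lower, the shares to set beside each marker count in this paragraph. Of 13 melanocyte and neural crest markers, 10 were tested, of which 9 were higher on the arrays labelled wtCopFry and none was lower. The summed signal of the 11 such markers with a probe set naming them alone was 7454.4 to 8399.0 on the arrays labelled wtCopFry, against 687 to 745 on the not_transfected arrays. SOX10, which specifies neural crest cells, averaged 1395.1 ± 22.3 (SD, n = 3) on the arrays labelled wtCopFry and 0.433 ± 0.321 on the not_transfected arrays. Of 6 breast epithelial markers 5 were lower and none was higher, with a summed signal of 1690.0 to 1855.3 on wtCopFry-labelled arrays, against 7529.5 to 8243.5 on not_transfected arrays. KRT19, a keratin of simple epithelia, averaged 1.1 ± 0.346 on wtCopFry-labelled and 1669.1 ± 43.5 on not_transfected arrays. KRT18 was less changed, at 1506.8 ± 56.5 on wtCopFry-labelled and 2992.3 ± 191 on not_transfected arrays, and made up most of the epithelial sum on the former. CDH1 and the melanocyte marker PMEL did not pass. TYR and MLANA were dim where higher, at 25.5 ± 8.61 and 35.5 ± 25.2 on wtCopFry-labelled arrays. Of 5 mesenchymal breast tumour markers 1 was higher and 3 were lower (sums of 11641.7 to 14498.5 on wtCopFry-labelled and 15703.0 to 17656.7 on not_transfected arrays). PLAU, among the lower, averaged 6.2 ± 0.917 on wtCopFry-labelled and 2579.0 ± 392 on not_transfected arrays (limma adjusted p = 1.47e-10). On the log scale of the tests its difference was -6.86, beside -0.7 for AXL, -0.31 for CAV1 and 0.27 for CD44. VIM did not pass (0.18). Most of these sums came from VIM, CD44, AXL and CAV1, so they hide the difference of PLAU. Of 3 oestrogen receptor status markers 1 was tested and was lower (68.8 to 84.3 on wtCopFry-labelled and 96.8 to 102 on not_transfected arrays), with PGR at background on every array. Of 4 adipose and fibroblast markers 1 was tested and was lower (27.0 to 42.1 on wtCopFry-labelled and 122 to 167 on not_transfected arrays). Among the tested markers, SOX10, S100B, TYR, MLANA, PMEL, KRT19 and EPCAM had a group's mean below 5.87, the signal of the filter on low values. These markers passed the filter through the group where they are high. All 4 probe sets of human FRY fell below the filter on low values, with at most 9.8 on any array, and they do not check for the rat transgene. In a limma fit without the filter 2 of them were lower, by 0.56 and 0.25 in size (adjusted p = 9.72e-04 and 0.0396). FRYL, the paralog of FRY, averaged 107 ± 12.7 on wtCopFry-labelled and 278 ± 13.5 on not_transfected arrays on its brightest probe set. GAPDH read nearer its 3' end gave 1.24 to 1.33 times the signal read nearer its 5' end on the arrays labelled wtCopFry and 1.36 to 1.39 times on the not_transfected arrays, a ratio that grows as RNA degrades. The part of cell identity and of RNA quality in the tetraspanin differences was not tested, and neither can be told apart from the effect of Fry in this design. In such bulk RNA, fewer cells of a type and less RNA per cell cannot be told apart either.

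Of the 32 tetraspanin genes, 23 passed the filter on low values and 9 did not. Among the 23, 7 were higher on the arrays labelled wtCopFry, 7 were lower and 9 did not pass the test (limma, Benjamini-Hochberg adjusted p under 0.05 over 13630 genes). Over all genes tested, 34.3% were called higher and 33.3% lower, 67.6% in all, so the 60.9% of tetraspanins called lay near that background. At a difference of at least 1 on the log2(signal + 16) scale, TSPAN13 was higher and CD82, TSPAN5, TSPAN8 and TSPAN12 were lower, where 12.3% and 10.8% of all genes tested were higher and lower by that much. With log2(signal + 1) in its place, ROM1, TSPAN33 and UPK1A also reached 1 and TSPAN1 and TSPAN15 also reached -1, which made 4 higher and 6 lower, while log2(signal + 64) gave the 5 genes above. The median difference of the 23 was 0.08, beside 0.01 for all genes tested. The median size of the difference, regardless of sign, was 0.61, beside 0.48. For 17 of the 23 (73.9%) the groups did not overlap, as for 73.1% of all genes tested. For 3 of the 23, UPK1A, TSPAN1 and TSPAN8, the mean of a group lay below the filter signal of 5.87, so these passed the filter through the group where they are high. Over probe sets, 9 of 38 tested were higher and 14 lower, beside 30.3% and 32.3% of all probe sets tested. Among the 15 tetraspanin genes whose mean reached 100 in either group, a limit chosen after the data had been seen, 4 were higher and 4 lower, beside 35.2% and 35.3% of all genes so limited.

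**Figure D1:**
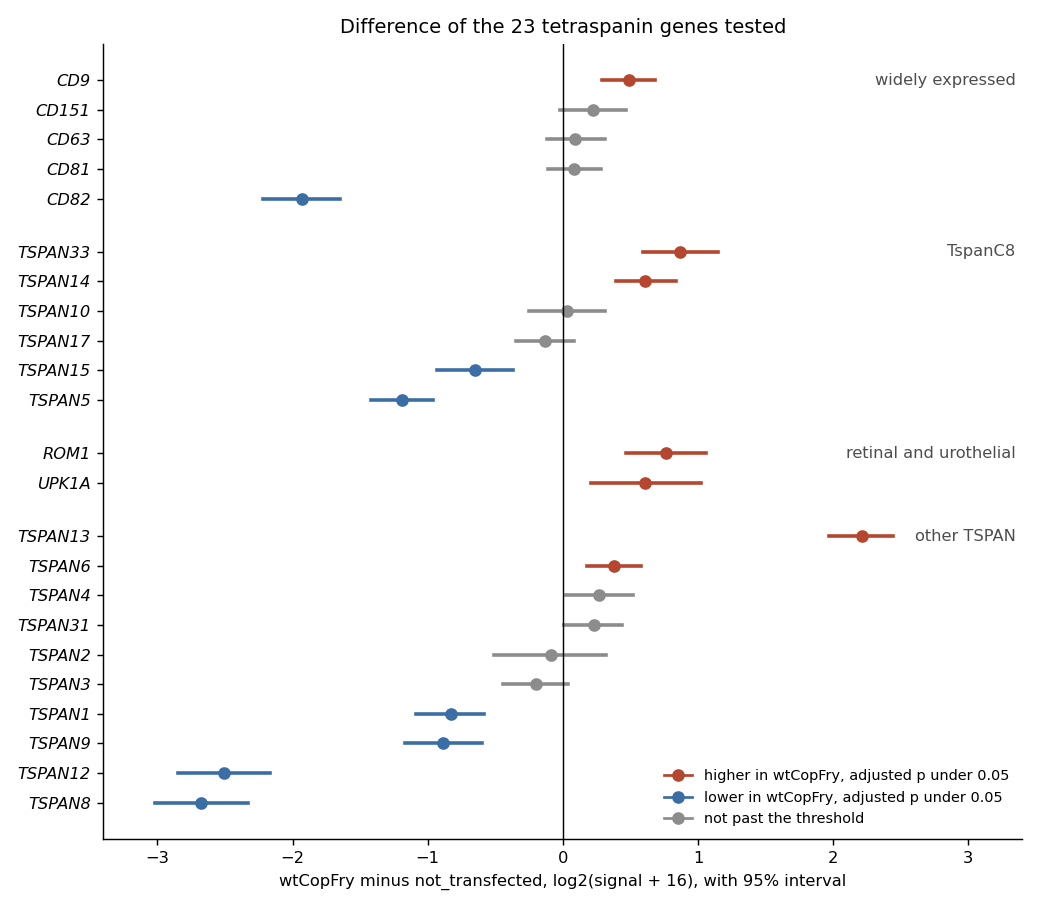
Difference of each of the 23 tested tetraspanin genes, wtCopFry minus not_transfected arrays on the log2(signal + 16) scale, with 95% intervals from limma (n = 3 arrays per group). Red marks genes higher and blue genes lower at an adjusted p under 0.05, and grey those that did not pass. TSPAN13 stands at 2.21 on the right, and TSPAN8 at -2.68 and TSPAN12 at -2.51 on the left.

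The 5 genes with differences of at least 1 are shown by the genomic sequence around their starts, to show how unlike these windows are. Each runs from 250 bases before to 50 bases after the RefSeq start, 5' to 3' on the gene's strand, in build GRCh38.p14. The first is higher and the others are lower on the arrays labelled wtCopFry. Capitals mark matches to the searched motifs.
TSPAN13, chr7:16753505-16753804, plus strand: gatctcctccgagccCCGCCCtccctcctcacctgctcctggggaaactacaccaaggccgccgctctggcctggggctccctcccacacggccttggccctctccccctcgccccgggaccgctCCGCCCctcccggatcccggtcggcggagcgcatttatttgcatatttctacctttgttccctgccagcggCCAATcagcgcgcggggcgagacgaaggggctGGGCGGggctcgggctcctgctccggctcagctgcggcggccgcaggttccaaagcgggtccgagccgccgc
CD82, chr11:44565413-44565712, plus strand: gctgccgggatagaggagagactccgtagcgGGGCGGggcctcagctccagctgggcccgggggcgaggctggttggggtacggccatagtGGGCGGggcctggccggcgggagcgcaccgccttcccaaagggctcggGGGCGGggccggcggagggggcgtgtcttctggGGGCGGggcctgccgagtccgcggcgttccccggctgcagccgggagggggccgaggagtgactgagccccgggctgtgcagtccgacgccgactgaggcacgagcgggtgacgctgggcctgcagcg
TSPAN5, chr4:98658562-98658861, minus strand: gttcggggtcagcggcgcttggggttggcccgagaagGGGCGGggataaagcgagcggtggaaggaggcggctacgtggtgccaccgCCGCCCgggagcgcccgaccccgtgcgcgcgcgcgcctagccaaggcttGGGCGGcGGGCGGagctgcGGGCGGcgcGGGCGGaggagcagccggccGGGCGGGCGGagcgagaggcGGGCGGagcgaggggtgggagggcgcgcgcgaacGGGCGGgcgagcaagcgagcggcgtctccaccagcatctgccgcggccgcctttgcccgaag
TSPAN8, chr12:71157950-71158249, minus strand: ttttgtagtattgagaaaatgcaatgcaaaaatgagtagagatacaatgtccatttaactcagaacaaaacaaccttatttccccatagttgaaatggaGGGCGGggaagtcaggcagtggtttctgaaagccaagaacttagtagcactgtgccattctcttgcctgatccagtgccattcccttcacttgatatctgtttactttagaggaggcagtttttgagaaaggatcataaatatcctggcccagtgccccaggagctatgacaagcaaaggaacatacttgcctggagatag
TSPAN12, chr7:120858095-120858394, minus strand: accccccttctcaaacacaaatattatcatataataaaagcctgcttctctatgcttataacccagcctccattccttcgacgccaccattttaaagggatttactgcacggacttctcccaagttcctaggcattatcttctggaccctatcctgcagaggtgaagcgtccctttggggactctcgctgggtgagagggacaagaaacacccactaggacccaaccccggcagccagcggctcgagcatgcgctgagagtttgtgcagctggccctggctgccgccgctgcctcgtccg

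The motifs searched on both strands were the GC box GGGCGG, the CCAAT box, the TATAAA box, the E-boxes CACGTG and CATGTG, and the letters TGANTCA, the site of AP-1 factors. The window of TSPAN5 held 10 GC boxes, some overlapping, that of CD82 held 4, that of TSPAN13 held 3 with 1 CCAAT, and that of TSPAN8 held 1. The TSPAN12 window matched none of the motifs. The base composition also differed, with 78.3% G and C in the TSPAN5 window, 76.7% in CD82 and 71.3% in TSPAN13, but 54.3% in TSPAN12 and 42.3% in TSPAN8. The median was 61.7% over the 24 tetraspanin genes with an entry and 58.3% over 27305 RefSeq promoters of the same length. A GC box was found in 13 of the 24, beside 44.6% of all promoters, and CCAAT in 9, beside 35.7%. CCAAT was present in 5 of the 7 genes called higher and 1 of the 6 called lower that have an entry, which is given as a description only. CATGTG occurred in 5 of the 24 (11.2% of all promoters), TGANTCA in 3 (7.76%), CACGTG in 2 (7.43%) and TATAAA in 1, UPK1A (12.0%). The CD63 window held both E-boxes together with TGANTCA. These matches are letters in a window and say nothing about binding.

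The widely expressed tetraspanins are the best known as organisers of membrane partners. Of these 5, 3 did not pass, a count too small to set against the 67.6% of all genes tested that passed. CD63, which resides in late endosomes, lysosomes and exosomes, read 3733.3, 3419.2 and 3927.8 on the arrays labelled wtCopFry and 3384.1, 3338.0 and 3659.6 on the not_transfected arrays. The groups overlapped, and the difference of 0.09 had a 95% interval of -0.12 to 0.31 (limma adjusted p = 0.411). CD81, an entry receptor of hepatitis C virus, gave signals of 1309.9, 1254.9 and 1218.1 on the arrays labelled wtCopFry and 1233.5, 1184.7 and 1147.8 on the not_transfected arrays. Those ranges overlapped too, with a difference of 0.08 and an interval of -0.11 to 0.28 (limma adjusted p = 0.413). CD151, which binds laminin-binding integrins, read 1339.2, 1250.0 and 1422.0 on wtCopFry-labelled arrays, against 1005.1, 1214.8 and 1214.7 on not_transfected arrays. Every wtCopFry value lay above every not_transfected value, but the lowest of the first and the highest of the second were close. The CD151 difference of 0.22 had an interval of -0.02 to 0.47 and did not pass (limma adjusted p = 0.0903).

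CD9 and CD82 passed in opposite directions. CD9, which takes part in cell adhesion and in gamete fusion, had signals of 2068.5, 1992.2 and 2177.6 on the arrays labelled wtCopFry and 1537.8, 1453.0 and 1447.9 on the not_transfected arrays. All 3 of the first were higher, by 0.49 on the log2 scale (SE 0.09, limma adjusted p = 8.11e-04). A dimmer CD9 probe set was also higher, at 33.9 ± 11.8 on wtCopFry-labelled and 17.5 ± 1.05 on not_transfected arrays (0.55, limma adjusted p over probe sets 0.0157). CD82, known as a suppressor of metastasis, read 74.5, 64 and 67.9 on the arrays labelled wtCopFry, against 319.4, 356.6 and 255.1 on the not_transfected arrays. The groups were far apart, with a difference of -1.93 (SE 0.13, limma adjusted p = 7.82e-07). Its other probe set was lower as well, at 30.1, 38.5 and 41.9 on wtCopFry-labelled arrays, against 100.5, 181.8 and 124.6 on not_transfected arrays.

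**Figure D2:**
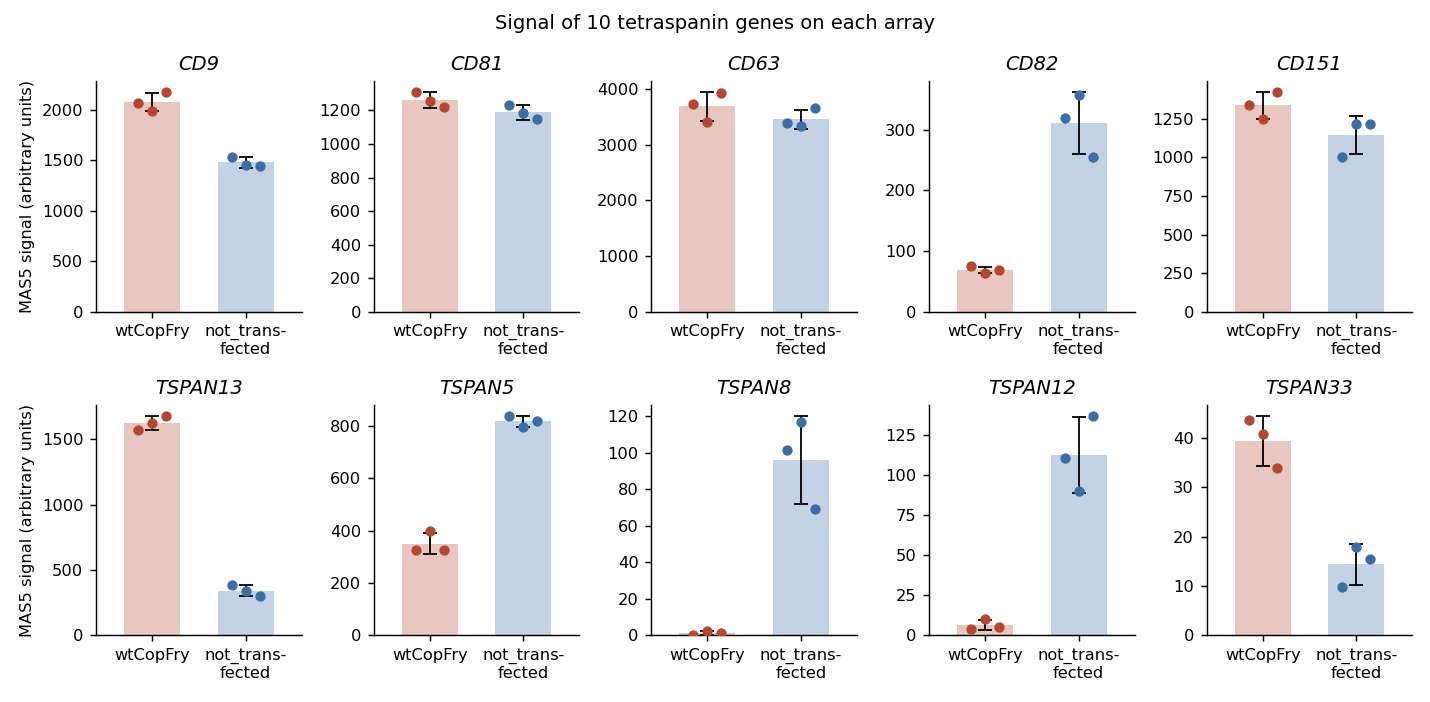
MAS5 signal (arbitrary units, linear axis from 0, a separate scale per gene) of the 5 widely expressed tetraspanins and 5 others on each array, wtCopFry on the left and not_transfected on the right. Points are arrays, bars the mean and error bars the SD (n = 3). CD63 and CD81 overlap between groups, CD82, TSPAN5, TSPAN8 and TSPAN12 are lower on every array labelled wtCopFry, and CD9, TSPAN13 and TSPAN33 are higher.

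The TspanC8 subgroup escorts ADAM10, the protease that sheds Notch receptors and cadherins, out of the endoplasmic reticulum to the cell surface. All 6 of its genes were tested, of which 2 were higher, 2 were lower and 2 did not pass, near the 34.3% higher and 33.3% lower over all genes tested. TSPAN5 read 327.7, 397.8 and 325.1 on the arrays labelled wtCopFry and 838.3, 796.8 and 816.9 on the not_transfected arrays. The groups did not overlap, and the difference was -1.19 (SE 0.10, limma adjusted p = 5.54e-06). Both of the other TSPAN5 probe sets were lower too, by 1.15 and 1.0 in size. TSPAN15, linked to ADAM10 cleavage of N-cadherin, stood at 9.8, 16.3 and 16.1 on wtCopFry-labelled arrays, against 29.1, 37.0 and 27.2 on not_transfected arrays. These low signals also did not overlap (-0.65, SE 0.12, limma adjusted p = 0.00114). TSPAN33, found in erythroid progenitors and activated B cells, was higher at 43.7, 40.7 and 33.8 on wtCopFry-labelled arrays, against 9.8, 17.9 and 15.4 on not_transfected arrays (0.87, SE 0.12, limma adjusted p = 1.77e-04). TSPAN17 did not pass, at 519 ± 17.4 on wtCopFry-labelled and 572 ± 46.3 on not_transfected arrays (-0.13, interval -0.35 to 0.08). TSPAN10, described in retinal pigment epithelium and melanocytes, read 8.2 to 13.6 on the arrays labelled wtCopFry and 6.6 to 13.0 on the not_transfected arrays (0.03, interval -0.25 to 0.31). Its other tested probe set read 9.8, 9.6 and 10.7 on wtCopFry-labelled arrays, against 5.4, 6.8 and 8.4 on not_transfected arrays. There the groups did not overlap, but it did not pass either (0.19, interval -0.01 to 0.39, limma adjusted p over probe sets 0.0964).

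TSPAN14, also of TspanC8, was read in opposite directions by its probe sets. The brighter read 279.4, 294.2 and 249.5 on the arrays labelled wtCopFry and 181.6, 178.5 and 160.9 on the not_transfected arrays, a difference of 0.61 (SE 0.10, limma adjusted p = 3.96e-04). The dimmer read 46.1, 54.3 and 52.6 on wtCopFry-labelled arrays, against 121.7, 108.1 and 119.1 on not_transfected arrays, a difference of -0.98 (SE 0.09, limma adjusted p over probe sets 1.59e-05). Neither pair of groups overlapped, so the direction of TSPAN14 depends on which probe set stands for it. It was counted as higher because its brighter probe set represents it. TSPAN9, a tetraspanin of platelets, showed the same kind of disagreement. Its brighter probe set gave 121.9, 108.5 and 137.0 on wtCopFry-labelled arrays, against 215.3, 284.4 and 223.1 on not_transfected arrays (-0.89, SE 0.13, limma adjusted p = 1.84e-04). Its dimmer probe set gave 22.2, 20.2 and 17.5 on wtCopFry-labelled arrays, against 12.4, 10.2 and 16.5 on not_transfected arrays (0.31, SE 0.11, limma adjusted p over probe sets 0.0297). With TSPAN14 and TSPAN9, 2 of the 12 tetraspanin genes with several tested probe sets were called in both directions, beside 6.73% of all such genes. Where on the transcripts these probe sets lie was not determined.

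**Figure D3:**
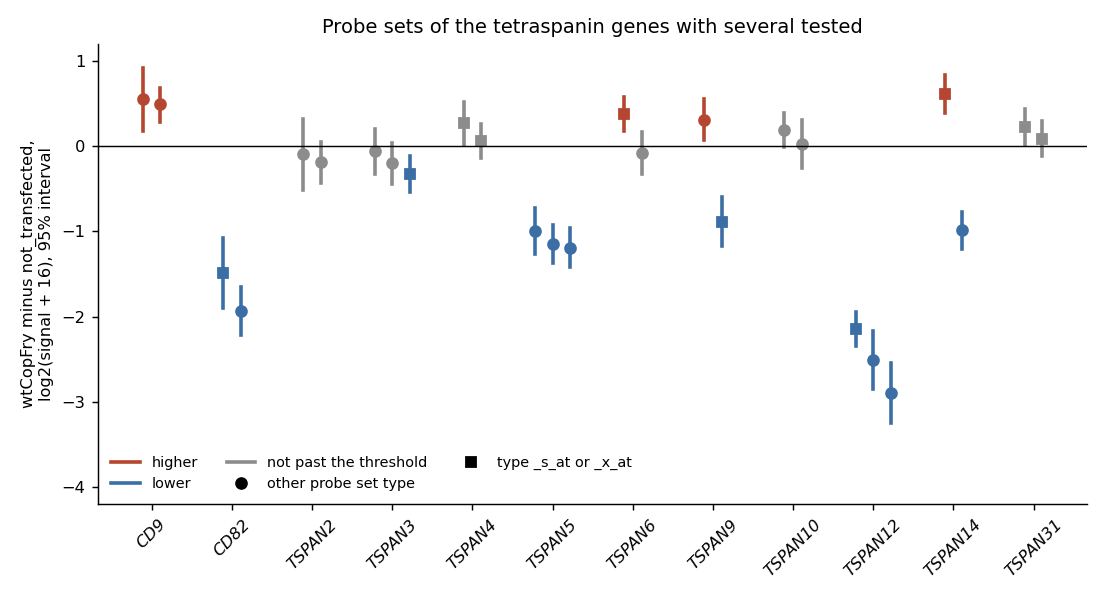
Differences, wtCopFry minus not_transfected on the log2(signal + 16) scale with 95% intervals, of every tested probe set of the 12 tetraspanin genes with several. Squares are probe sets of the _s_at and _x_at types, which can cross-hybridise, and circles are the others. Probe sets of TSPAN5, TSPAN12 and CD82 lie together below 0, and those of TSPAN14 and TSPAN9 lie on opposite sides.

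On the log2(signal + 16) scale TSPAN8, TSPAN12 and TSPAN13 had the largest differences in size of the 23 tested genes. That order depends on the added constant, since TSPAN1 (-2.42) passed TSPAN13 (2.25) with log2(signal + 1), and TSPAN13 (2.06) and CD82 (-1.49) led with log2(signal + 64). TSPAN8, a surface protein of intestinal and other epithelia that has been tied to tumour spread, read 0.3, 2.3 and 1.1 on the arrays labelled wtCopFry and 101.6, 116.8 and 69.3 on the not_transfected arrays. The first 3 values were not above background, taken per array as the brightest of 27 bacterial control probe sets with no spiked target (2.5 to 4.9). Against that level TSPAN8 was at least 26.6-fold lower (-2.68 on log2(signal + 16), limma adjusted p = 3.16e-07). A higher background level would give a smaller fold, and the same holds for the other folds given as bounds. TSPAN8 is read by a single probe set.

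TSPAN12, a coreceptor for the ligand norrin on the Wnt receptor FZD4 in retinal vessels, was near background on the arrays labelled wtCopFry on all of its 3 probe sets. The brightest read 4.3, 10.0 and 5.0 on wtCopFry-labelled arrays, against 110.2, 90.0 and 136.7 on not_transfected arrays (-2.51, SE 0.15, limma adjusted p = 4.08e-07). A further probe set, at 1.9, 0.1 and 2.1 on wtCopFry-labelled arrays, against 106.7, 88.5 and 150.4 on not_transfected arrays, was not above background in the first group and was at least 31.9-fold lower. That bound holds for this probe set alone, as the brightest was above background and averaged 6.43 ± 3.11 on wtCopFry-labelled and 112 ± 23.4 on not_transfected arrays. The 2 dimmer probe sets of TSPAN12, at means of 1.37 and 3.37 on wtCopFry-labelled arrays, passed the filter through the not_transfected group. TSPAN12 and TSPAN8 thus had readings of 67.0 to 150.4 on every not_transfected array and of 10.0 or less on every array labelled wtCopFry. In contrast TSPAN13, reported to bind voltage-gated calcium channels, read 1571.2, 1625.5 and 1679.7 on the arrays labelled wtCopFry and 383.3, 341.0 and 300 on the not_transfected arrays. No values of the groups came near each other (2.21, SE 0.11, limma adjusted p = 8.80e-08), and TSPAN13 also has a single probe set.

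The remaining tested TSPAN genes had differences under 1 in size on the log2(signal + 16) scale, which shrinks those of dim genes such as TSPAN1. TSPAN1, an epithelial tetraspanin, stood at 2.8, 5.0 and 0.8 on wtCopFry-labelled arrays, against 19.1, 19.2 and 14.4 on not_transfected arrays, so both groups were dim but separate (-0.83, SE 0.11, limma adjusted p = 1.24e-04). The readings of 2.8 and 0.8 were not above the background levels of their arrays, 3.3 and 4.9, so the size of this difference depends on the added constant. TSPAN6, reported to dampen antiviral signalling, was higher at 675 ± 28.3 on wtCopFry-labelled and 516 ± 25.8 on not_transfected arrays on its brighter probe set (0.38, limma adjusted p = 0.00412). Its other probe set, at 380 ± 49.3 on wtCopFry-labelled and 400 ± 16.5 on not_transfected arrays, did not pass (-0.08, limma adjusted p over probe sets 0.553), so the call rests on 1 of 2. TSPAN4, a protein of migrasomes, gave 384 ± 1.46 on wtCopFry-labelled and 319 ± 46.4 on not_transfected arrays and narrowly did not pass (0.27, interval 0.02 to 0.52, limma adjusted p = 0.0558). Without the second not_transfected array, the brightest of its group at 371.9, TSPAN4 passed (0.38, limma adjusted p = 0.00915). Without any other single array it did not (limma adjusted p of 0.104 to 0.161). The other TSPAN4 probe set overlapped between groups, at 216 ± 2.32 on wtCopFry-labelled and 207 ± 12.1 on not_transfected arrays (0.06, limma adjusted p over probe sets 0.587). TSPAN31, whose gene lies beside CDK4, likewise did not pass, at 966 ± 38.6 on wtCopFry-labelled and 825 ± 62.1 on not_transfected arrays (0.23, interval 0.01 to 0.44, limma adjusted p = 0.0584). Its dimmer probe set overlapped between groups, at 45.3 ± 3.27 on wtCopFry-labelled and 41.5 ± 2.39 on not_transfected arrays (0.09, limma adjusted p over probe sets 0.392). TSPAN3, at 1503.5 ± 126 on wtCopFry-labelled and 1734.1 ± 158 on not_transfected arrays, did not pass on its brightest probe set (-0.20, interval -0.44 to 0.04). Another TSPAN3 probe set was lower, at 418 ± 35.3 on wtCopFry-labelled and 525 ± 16 on not_transfected arrays (-0.32, limma adjusted p over probe sets 0.0145). TSPAN2, known from oligodendrocytes, spread widely in the first group, at 58.3, 38.7 and 82.0 on wtCopFry-labelled arrays, against 63.8, 57.5 and 66.5 on not_transfected arrays (-0.09, interval -0.51 to 0.32). Its dim probe sets separated the groups in opposite directions without passing. A tested one averaged 4.67 ± 1.97 on wtCopFry-labelled and 7.5 ± 1.76 on not_transfected arrays (-0.19, limma adjusted p over probe sets 0.153). Another, below the filter, averaged 7.27 ± 0.321 on wtCopFry-labelled and 3.63 ± 2.71 on not_transfected arrays (0.25 in the fit without the filter).

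Tetraspanins that mark specialised cells were dim. ROM1, which builds the rim of photoreceptor discs with PRPH2, was higher at 44.1, 34.2 and 34.8 on wtCopFry-labelled arrays, against 18.8, 10.2 and 18.3 on not_transfected arrays (0.76, SE 0.13, limma adjusted p = 6.46e-04). UPK1A, a uroplakin of the bladder lining, read 7.8, 7.5 and 22.1 on wtCopFry-labelled arrays, against 1.4, 4.1 and 1.1 on not_transfected arrays, which were not above background. It was at least 3.18-fold higher (0.61, limma adjusted p = 0.0130), and without the third wtCopFry array, which holds the 22.1, it fell below the filter and was not tested. The 9 genes below the filter were CD37, CD53 and TSPAN32, which are tetraspanins of leukocytes, with PRPH2, UPK1B, TSPAN7, TSPAN11, TSPAN16 and TSPAN18. Their 17 probe sets read between 0.1 and 10.2 over all 6 arrays. In a limma fit without the filter, 0 of the 17 passed and 1, of PRPH2, had an unadjusted p under 0.05, where 18.3% of all probe sets were higher and 19.7% lower. The leukocyte markers listed beside them summed to 1443.9 to 1556.5 on the arrays labelled wtCopFry and 851 to 924 on the not_transfected arrays, with CD3E at background on every array. Of the 4 tested 1 was higher and 1 lower, beside 34.3% and 33.3% of all genes tested. Most of the leukocyte sums came from LCP1 in the first group and from LAPTM5 in the second. Of 4 urothelial markers 1 was tested and did not pass (sums of 3.1 to 13.3 on wtCopFry-labelled and 19.1 to 20.8 on not_transfected arrays, with UPK3A at background throughout), and of 5 photoreceptor markers 1 was tested and did not pass (10.1 to 15.7 on wtCopFry-labelled and 8.5 to 21.2 on not_transfected arrays).

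The tetraspanin genes lie on many chromosomes, with 7 on chromosome 11 and 6 on chromosome 12, and in the RefSeq gene order some are neighbours. CD82 and TSPAN18 have 0 protein-coding genes between them, as have TSPAN32 and CD81, while CD151 and TSPAN4 have 1. CD82 was lower, whereas its neighbour TSPAN18 read at most 6.5 on any array. CD81 did not pass, and its neighbour TSPAN32 read at most 6.8. CD151 and TSPAN4 gave differences of 0.22 and 0.27, neither of which passed.

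Adhesion partners of tetraspanins changed in both directions. Of 23 tested, 7 were higher and 11 lower with a median difference of -0.15, beside 34.3% and 33.3% and a median of 0.01 over all genes. In this and the following lists EPCAM, CLDN7, BTC, CX3CL1, PMEL and TM4SF18 had a group's mean below the filter signal and so passed the filter through the other group. PTGFRN, an immunoglobulin-type partner of CD9 and CD81, averaged 1121.3 ± 45.2 on the arrays labelled wtCopFry and 14.2 ± 5.88 on the not_transfected arrays (5.25, limma adjusted p = 1.15e-09). The integrin chain ITGA4 averaged 424 ± 21.5 on wtCopFry-labelled and 16.8 ± 1.2 on not_transfected arrays (3.74, limma adjusted p = 7.30e-10). EPCAM, an epithelial adhesion molecule, was lower at 4.6 ± 2.29 on wtCopFry-labelled and 234 ± 31.7 on not_transfected arrays (-3.60, limma adjusted p = 8.04e-09), as was the integrin chain ITGB4 at 22.9 ± 2.80 on wtCopFry-labelled and 203 ± 15.9 on not_transfected arrays (-2.50, limma adjusted p = 2.32e-08). ITGA3 and ITGA6, the laminin-binding chains that pair with CD151, were chosen here after their values were seen. ITGA3 was lower at 230.0 ± 9.27 on wtCopFry-labelled and 840.0 ± 21.0 on not_transfected arrays (limma adjusted p = 8.29e-08), and ITGA6 did not pass at 1712.2 ± 150 on wtCopFry-labelled and 1565.7 ± 171 on not_transfected arrays (0.13, limma adjusted p = 0.331). EPCAM is also on the list of epithelial markers given above. The part of cell identity in the differences of these partners was not tested.

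ADAM10 itself, chosen here after its values were seen, did not pass, at 2792.6 ± 225 on the arrays labelled wtCopFry and 2641.1 ± 123 on the not_transfected arrays (0.08, limma adjusted p = 0.497). Of 15 tested genes in the list of ADAM10 and its substrates, 4 were higher and 5 lower (median -0.13), beside 34.3% and 33.3% of all genes tested. CDH2, which encodes N-cadherin, was higher at 1848.9 ± 266 on wtCopFry-labelled and 43.1 ± 2.84 on not_transfected arrays (4.97, limma adjusted p = 6.84e-10), and so was the chemokine CXCL16 at 144 ± 14.2 on wtCopFry-labelled and 28.1 ± 11.6 on not_transfected arrays (1.89, limma adjusted p = 8.22e-06). The receptor NOTCH2 was lower at 1051.5 ± 27.1 on wtCopFry-labelled and 1738.7 ± 107 on not_transfected arrays (-0.72, limma adjusted p = 7.64e-05). BTC, a ligand of the EGF family, averaged 0.9 ± 1.3 on wtCopFry-labelled and 20.9 ± 4.9 on not_transfected arrays, not above background in the first group and so at least 5.82-fold lower.

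Of 19 tested genes of exosomes and endosomal sorting, 4 were higher, 4 lower and 11 did not pass (median 0.01), beside 34.3% higher and 33.3% lower over all genes tested. RAB27A, a GTPase that docks exosome-bearing endosomes and melanosomes, was higher at 1270.0 ± 52.1 on wtCopFry-labelled and 527 ± 73.0 on not_transfected arrays (1.25, limma adjusted p = 8.59e-06), with its effector SYTL4 at 271 ± 31.3 on wtCopFry-labelled and 138 ± 13.4 on not_transfected arrays (0.90) and the lysosomal membrane protein LAMP2 at 1691.7 ± 61.0 on wtCopFry-labelled and 926 ± 82.5 on not_transfected arrays (0.86). FLOT1, a scaffold of lipid rafts, was lower at 734 ± 25.7 on wtCopFry-labelled and 1076.0 ± 97.5 on not_transfected arrays (-0.54). The limma adjusted p of SYTL4, LAMP2 and FLOT1 was at most 8.51e-04.

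Among 4 tested genes of the Norrin pathway that TSPAN12 serves, 3 were lower and none was higher, a count too small to set against the 33.3% lower and 34.3% higher over all genes tested. NDP, which encodes norrin, averaged 35.0 ± 0.436 on the arrays labelled wtCopFry and 242 ± 30.7 on the not_transfected arrays (-2.33, limma adjusted p = 6.11e-08). The coreceptor LRP5 stood at 46.9 ± 7.60 on wtCopFry-labelled and 155 ± 29.8 on not_transfected arrays (-1.43, limma adjusted p = 2.00e-05) and LRP6 at 234 ± 7.51 on wtCopFry-labelled and 388 ± 42.2 on not_transfected arrays (-0.69, limma adjusted p = 2.24e-04). FZD4 did not pass, at 294 ± 32.7 on wtCopFry-labelled and 241 ± 29.7 on not_transfected arrays (0.27, limma adjusted p = 0.0697). In the list of palmitoyltransferases, which attach the lipid that tetraspanin assembly needs, and of ubiquitin ligases that can target tetraspanins, all 7 genes passed, 3 higher and 4 lower (median -0.42), where 67.6% of all genes tested passed. ZDHHC4 among them lay near the threshold (limma adjusted p = 0.0467 over genes and 0.0501 over probe sets). The ligase RNF128 was higher at 434 ± 26.2 on wtCopFry-labelled and 43.8 ± 4.82 on not_transfected arrays (2.91, limma adjusted p = 7.72e-09), and the palmitoyltransferase ZDHHC23 at 294 ± 17.0 on wtCopFry-labelled and 44.9 ± 5.01 on not_transfected arrays (2.35, limma adjusted p = 3.24e-08). The ligase MARCHF8 was lower at 107 ± 15.8 on wtCopFry-labelled and 357 ± 24.6 on not_transfected arrays (-1.60), as was ZDHHC3 at 214 ± 8.73 on wtCopFry-labelled and 547 ± 42.6 on not_transfected arrays (-1.29, limma adjusted p at most 1.82e-06 for both).

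The L6 proteins share the tetraspanin topology without belonging to the family. Of 6 listed, 2 were tested, of which TM4SF18 was higher at 500.0 ± 24.7 on wtCopFry-labelled and 4.97 ± 0.808 on not_transfected arrays (4.62, limma adjusted p = 2.20e-10) and TM4SF1 did not pass at 3985.5 ± 341 on wtCopFry-labelled and 4157.4 ± 98.6 on not_transfected arrays (-0.06). With 2 tested, the count is too small to set against the 34.3% higher over all genes tested. Of the 3 other uroplakins 1 was tested, UPK2, which did not pass (-0.13).

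**Figure D4:**
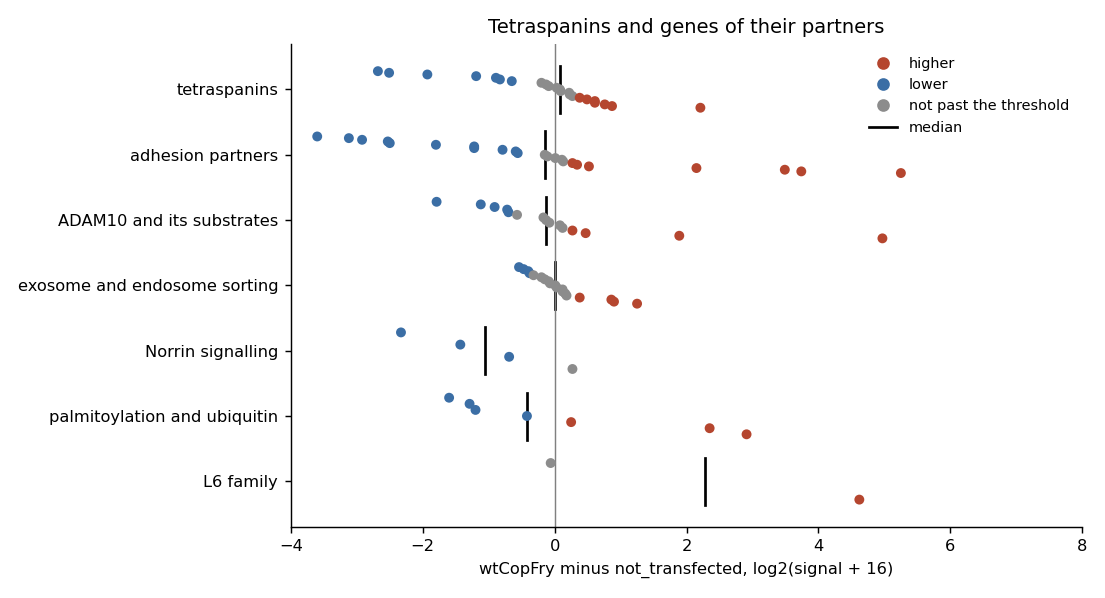
Differences of the 23 tested tetraspanin genes and of the tested genes of 6 partner lists, wtCopFry minus not_transfected on the log2(signal + 16) scale. Each point is a gene, red where higher, blue where lower and grey where it did not pass at an adjusted p under 0.05, and black bars are medians. Genes that passed lie on both sides of 0 in each list except Norrin signalling, where they lie below, and the L6 family, where 1 lies above.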

How the data were processed

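Gene expression was read on 6 one-colour arrays, 3 labelled wtCopFry and 3 labelled not_transfected. The deposited values were linear signal intensities that the authors made with MAS5, per the submitters' processing notes. Neither its version nor its scaling target is named there. The values gave every array the same mean after trimming 2% at each end.

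Genes were named from GEO's platform annotation, and all 32 tetraspanin symbols matched a RefSeq gene table of GRCh38.p14. Tests used log2(signal + 16), so differences of dim genes come out smaller than on the linear scale. Probe sets at or above the 40th percentile of mean signal over the 6 arrays (5.87) were tested, 32771 of 54613. The comparison was fitted over all of them with lmFit and eBayes of limma 3.58.1 (R 4.3.3), without covariates. Differences are wtCopFry minus not_transfected. Each gene was represented by its brightest tested probe set, with Benjamini-Hochberg adjustment over 13630 genes. The adjusted p of a single probe set is over all probe sets tested. Means are given with SD (n = 3).

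Named are tetraspanins by role and up to 4 passing genes with the smallest p of each partner list. Members and lists were chosen with earlier results of these data known. On simulated arrays made from this comparison, with 200 of 32771 probe sets changed, 83% of the log2 differences of size 1 were recovered, as were 100% of those of size 2. There were 8 false calls. In the data 30.3% of tested probe sets were called higher and 32.3% lower, far more than were changed here. The adjustment was therefore stricter in the simulation, and its shares do not give the recovery of the comparison itself. Motifs were searched in RefSeq promoter windows, where 24 of 32 tetraspanin genes matched. Alternatives covered pseudocount, filter, normalization, probe set choice, variance model, replicate number and each array left out.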

Additional observations from a re-analysis of the deposited data

How the results depend on the processing

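The 23 tested tetraspanin genes were refitted under 15 alternatives, and 312 of 332 gene and setting pairs kept their direction and side of the threshold; 14 genes did so in every alternative that tested them. The count lower was 5 to 8 and the count higher 6 to 10, except that averaging all probe sets of a gene gave 4 higher of 20 tested, and the limit to a mean signal of at least 100, added after the data had been seen, gave 4 higher and 4 lower of 15. TSPAN14 turned to -0.18 with averaged probe sets and -0.98 without _s_at and _x_at probe sets. Without those types TSPAN9 turned to 0.31 and TSPAN6 to -0.08, because another probe set then stood for each gene. With averaged probe sets TSPAN6 lost its call. Averaging also moved TSPAN9 to -0.29 against -0.89. The constant in the log moved dim genes most, to -5.51 with +1 and -1.28 with +64 for TSPAN8, -3.99 and -1.32 for TSPAN12, -2.42 and -0.29 for TSPAN1, and 2.02 and 0.20 for UPK1A, all still called. Leaving out each array gave 6 to 8 higher and 7 lower. TSPAN10 then ranged from -0.06 to 0.13 and TSPAN2 from -0.30 to 0.12, neither past the threshold. CD151, TSPAN3, TSPAN4 and TSPAN31 passed under some alternatives, such as eBayes with trend and robust settings. The replicate block gave 7 higher and 7 lower and changed no tetraspanin call. Deviations of same-numbered arrays correlated at 0.07, 0.07 and 0.19 and not every array correlated best with its own number, so the numbers were not taken to pair the samples. Signals near background limit TSPAN1, TSPAN8, TSPAN10, TSPAN12 and UPK1A.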
